A study of Mus musculus with 24 samples.

Results

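Sites bound by Klf4 together with Oct4 and Sox2 in asynchronous mouse embryonic stem cells were followed into mitosis. The 495 sites were chosen by measured values, the asynchronous peak lists themselves. Overlapping peaks (1 bp or more) of the 3 Klf4 lists were joined into regions, regions with a peak in at least 2 of the lists were kept, and those that also touched a peak of the Oct4 list and of the Sox2 list were called shared sites. They made up 3.53% of 14015 Klf4 regions. A further 505 Klf4 regions touched Sox2 alone, 610 touched Oct4 alone, and 12405 touched neither.

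The study applied chromatin immunoprecipitation followed by sequencing (ChIP-seq) to V6.5 cells, an embryonic stem cell line of mixed C57BL/6 and 129 background, and asked which regulatory elements stay marked through mitosis. Per the labels, cells were cultured on irradiated feeder cells with serum and LIF and then passaged without feeders on gelatin with inhibitors of Mek1 and Gsk3. Mitotic cells were shaken off once nocodazole, which stops spindle formation, had acted for 7 h, at a dose printed in the labels as 100 ug/ml. Asynchronous cultures received no arrest, and both kinds of cells were fixed in 1% formaldehyde for 10 min. Klf4 had 3 libraries in each state, Oct4 and Sox2 each had a single asynchronous library beside 2 mitotic ones, and H3K27ac, histone H3 acetylated at lysine 27, had 2 per state. All of these groups came from this 1 cell line, and no label states that replicates came from separate cultures, so the spread between libraries may be technical. A Klf4 library from a mix of 10% stem cells and 90% neural progenitor cells had a peak at 3 of the 495 sites. Its list held only 1334 peaks and touched 13 of all 14015 Klf4 regions (0.0928%), so it says little about these sites.

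Klf4 is a zinc finger activator, Oct4 (encoded by Pou5f1) is a POU domain factor and Sox2 is an HMG box factor. Oct4 and Sox2 can bind side by side on a composite motif, and places where several pluripotency factors meet are typical of stem cell enhancers. H3K27ac is laid down on the nucleosomes of active enhancers and promoters. During mitosis chromatin condenses and most transcription stops, and binding that persists on mitotic chromosomes is called bookmarking.

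Few shared sites reached a promoter for which sequence was at hand. Of 32851 RefSeq promoter windows (GRCm38.p6, from 250 bases before to 50 after a start), 25 windows of 21 genes overlapped 19 of the 495 sites. The stretches below, which lie inside a shared site and end before the start, are shown because they carry motif letters at sites with different fates in mitosis. Capitals mark matches on either strand to GGGTGTGG or GGGCGTGG (Klf4-like), ATGCAAAT (octamer), CATTGT or CTTTGT (Sox-like), and the composite CATTGTNATGC or CTTTGTNATGC, which contains a Sox-like match by construction. All run 5′ to 3′ along the named gene. Nanog lies at chr6:122707315-122707564 (plus strand), Nrarp at chr2:25180569-25180757 (plus), Platr26 at chr2:71719167-71719416 (plus) and Cnot10 at chr9:114640201-114640450 (minus).
Nanog, 3 factors kept: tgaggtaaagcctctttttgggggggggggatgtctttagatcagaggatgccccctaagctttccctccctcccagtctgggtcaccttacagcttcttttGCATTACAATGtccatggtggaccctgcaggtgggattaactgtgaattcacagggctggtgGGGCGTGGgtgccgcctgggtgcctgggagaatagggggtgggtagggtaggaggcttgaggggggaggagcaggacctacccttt
Nrarp, 3 factors kept: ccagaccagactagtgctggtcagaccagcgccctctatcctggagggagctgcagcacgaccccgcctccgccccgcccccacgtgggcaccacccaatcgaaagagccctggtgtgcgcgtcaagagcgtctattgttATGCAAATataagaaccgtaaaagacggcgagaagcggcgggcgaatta
Platr26, Klf4 kept: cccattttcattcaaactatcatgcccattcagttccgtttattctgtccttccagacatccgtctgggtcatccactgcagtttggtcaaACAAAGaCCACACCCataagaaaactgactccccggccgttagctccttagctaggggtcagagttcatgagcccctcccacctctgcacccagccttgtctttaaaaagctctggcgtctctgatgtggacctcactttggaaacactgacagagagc
Cnot10, no factor kept: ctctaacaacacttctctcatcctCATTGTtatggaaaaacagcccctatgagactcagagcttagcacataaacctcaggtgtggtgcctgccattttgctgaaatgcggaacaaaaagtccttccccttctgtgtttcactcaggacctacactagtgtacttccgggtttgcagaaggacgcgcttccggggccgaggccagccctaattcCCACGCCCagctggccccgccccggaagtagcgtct
The Nanog stretch holds a composite match on the opposite strand and a Klf4-like match. The Nrarp stretch holds the octamer. Platr26, a long noncoding RNA, has a Sox-like and a Klf4-like match next to each other, and Cnot10, which encodes a subunit of the Ccr4-Not complex, also has one of each. Composite matches occurred in 2 of the 25 windows, both of them overlapping windows of Nanog (8.0%, against 0.237% of all promoter windows). Klf4-like matches occurred in 28.0% of the 25 windows and in 8.58% of all windows, Sox-like matches in 44.0% and 28.6%, and the octamer in 4.0% and 1.74%. Windows at Klf4-only sites held a Klf4-like match in 24.7% of 4767 cases and no composite match. These matches describe letters and were not read as binding sites.

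MicroRNA genes lay near some shared sites. Of 1005 RefSeq hairpins, 21 were within 20 kb of 13 shared sites (2.63% of the 495), and 4.07% of all Klf4 regions were as near to a hairpin. The largest group was the miR-290 to miR-295 cluster on chromosome 7, which is abundant in embryonic stem cells. Mature sequences of 3 members are given with bases 2 to 8, the seed, in capitals.
miR-290a-3p: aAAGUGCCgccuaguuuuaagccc
miR-294-3p: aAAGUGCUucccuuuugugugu
miR-295-3p: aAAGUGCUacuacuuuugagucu
The seed AAGUGCU is the same in miR-294-3p and miR-295-3p, while miR-290a-3p carries AAGUGCC. The site nearer to the cluster (chr7:3213447-3213916, 4.71 kb before miR-290a) had a peak in 5 of 7 mitotic factor lists, among them both Oct4 and both Sox2 lists but only Klf4 mitotic 3. The farther site (chr7:3201046-3201684) had a peak in 3 lists, Klf4 mitotic 1 and 3 and Sox2 mitotic 1. Both sites had H3K27ac in all 4 lists.

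The rule required overlapping peaks, so the distances between their centres in asynchronous cells are a description of the chosen sites. The centres of the Oct4 and Sox2 peaks were a median of 39.0 bp apart (quartiles 17.0 and 69.5 bp), and 88.3% lay within 100 bp of each other. Klf4 peaks of lists 1 and 2 had their centres 51.5 and 50.5 bp from the Oct4 centre, and those of list 3 were 80.5 bp away. Shared sites were a median of 438 bp wide, against 401 bp for the other Klf4 regions. Few lay next to a gene end. A gene end lay within 1 kb of 40 shared sites (8.08%, 95% Wilson interval 5.99 to 10.8), against 36.5% of all Klf4 regions, and 48.9% of shared sites were over 20 kb from the end of any protein-coding gene, against 28.3% of other regions. A share of 42.4% lay inside a gene, against 65.7% of other regions, and 358 sites overlapped a protein-coding gene or lay within 20 kb of one. The median distance to an annotated start was 21.2 kb, and 6.32 kb for other regions. This placement was not particular to shared sites. Of Klf4 sites with Sox2 but no Oct4, 7.52% were near a gene end, 42.0% inside a gene and 50.3% over 20 kb away. Their median start distance was 20.3 kb. Klf4 sites with Oct4 but no Sox2 had 23.3%, 54.6%, 38.7% and 12.8 kb. Only 8 sites fell in clusters with neighbours less than 10 kb apart, in 4 pairs near B3gnt7, Ranbp17, Etl4 and Phc1.

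The deposited fold of a peak is its enrichment over local background, and its percentile is its rank among the peaks of the same list. Folds are comparable within a list only, so folds printed from different lists describe each list by itself. Since these lists chose the sites, their values are a description. At shared sites the median percentile was 73.1 in Klf4 asynchronous 1, 86.4 in list 2, 61.4 in list 3, 70.0 in the Oct4 list and 68.5 in the Sox2 list. Klf4 asynchronous 3 stood apart, with a peak at 53.3% of shared sites, whereas lists 1 and 2 had one at 92.3% and 98.8%. At other Klf4 regions list 3 had a peak in 79.5%. List 3 carries the same project code in its title as the Oct4 and Sox2 libraries, while lists 1 and 2 carry other codes. Without list 3, 452 sites met the rule.

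The edge of the rule can be read from the smallest overlaps. The site near Tsx touched its Sox2 peak over 6 bp and the site in Cdkal1 touched its Oct4 peak over 45 bp. Just outside, a Klf4 region near Corin ended 4 bp from an Oct4 peak and one near Mtf2 27 bp from one. Tsx had a peak in 5 mitotic factor lists, Cdkal1 in 1, and Corin and Mtf2 in 3 each. The rule also left out 260 regions that touched both Oct4 and Sox2 but had a Klf4 peak in a single list, 223 of them from Klf4 asynchronous 2, the longest list.

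In mitosis the shared sites were found again more often than other sites of the same factor, in each of the 7 libraries. Recovery is the percentage of asynchronous sites with a peak of the same antibody in a given mitotic list. For Klf4 it was 45.3%, 31.3% and 62.8% at shared sites in mitotic libraries 1, 2 and 3, and 29.7%, 18.3% and 43.6% at other Klf4 regions. For Oct4 the 501 peaks at shared sites were recovered in 60.9% and 88.0% of cases, and other Oct4 peaks in 19.5% and 58.4%. For Sox2 the 505 peaks at shared sites were recovered in 84.8% and 63.4%, and others in 66.1% and 39.3%. The libraries of a factor differed widely among themselves, so that the highest value of the other Klf4 regions exceeded the lowest value of the shared sites, but within every library the shared sites were higher.

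**Figure D1:**
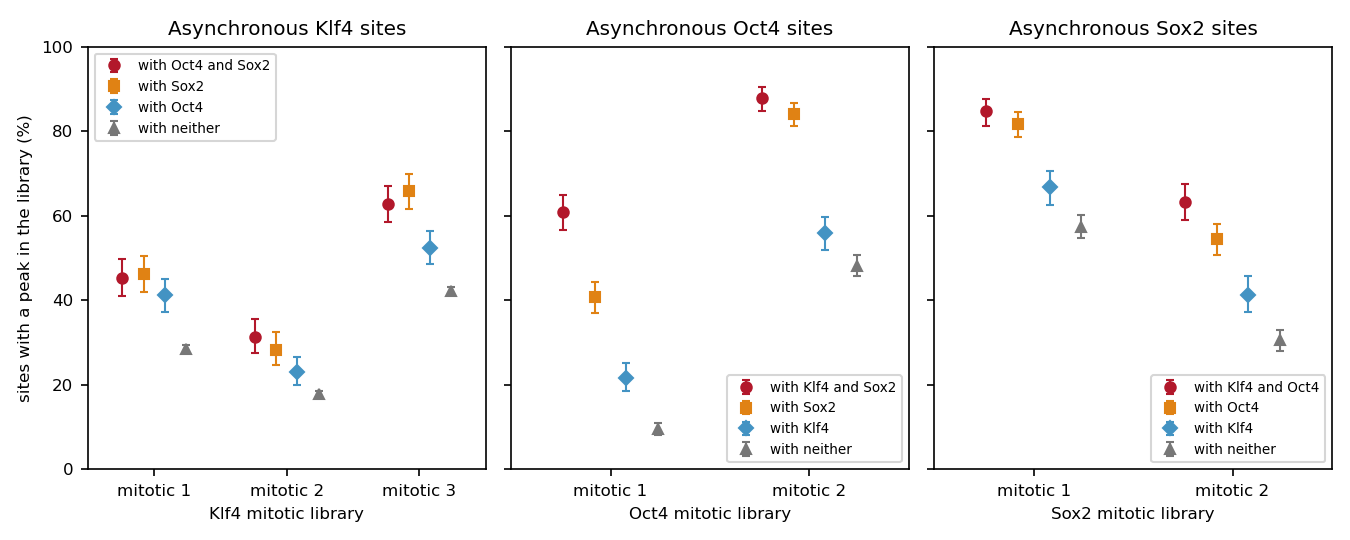
Percentage of asynchronous Klf4, Oct4 and Sox2 sites (y axis) with a peak in each mitotic library of the same factor (x axis), split by which of the other factors also had a peak. Points are percentages and bars are 95% Wilson intervals, which cover counting error only. In every library sites of all 3 factors lie above sites with neither partner.

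The difference averaged 23.1 percentage points over 7 libraries (SD 9.78), with an exact two-sided sign-flip permutation p of 0.0156, the smallest that 7 libraries allow. The libraries score the same shared sites, so their differences are not independent. Shared sites had peaks of all 3 antibodies, whereas other Oct4 and Sox2 peaks needed only 1 list. Of 2846 other Oct4 peaks, 1566 had neither partner. Other sites were then weighted to the spread of shared sites over 5 groups by the factor's own asynchronous fold percentile. This reduced the difference to 14.0 points (exact permutation p = 0.0156). Strength inside a group and the number of Klf4 asynchronous lists with a peak were not matched. For Klf4 alone the difference was 15.9 points and 6.37 after weighting, higher in 3 of 3 libraries (exact permutation p = 0.25 for both, the smallest that 3 libraries allow). For Oct4 it was 35.5 points and for Sox2 21.4 points, with 2 libraries each. Without Klf4 asynchronous 1, 258 sites remained and the Klf4 difference was 28.9 points. Without asynchronous 2, 221 sites remained and it was 24.8, and without asynchronous 3 it was 11.4 at 452 sites. Shared sites were wider than the others, and the part of width in recovery was not tested.

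Recovery was then compared by which partner was present. Klf4 recovery at shared sites and at Klf4 sites with Sox2 but no Oct4 differed by −0.334 points (SD 3.09, exact permutation p = 0.75). Shared sites were above Klf4 sites with Oct4 but no Sox2 by 7.56 points (SD 3.18) and above Klf4-only sites by 17.0 points (SD 3.46), each in 3 of 3 libraries (exact permutation p = 0.25 for both). For Oct4, sites with Sox2 but no Klf4 were recovered in 40.7% and 84.2%, sites with Klf4 but no Sox2 in 21.6% and 55.9%, and sites with neither in 9.45% and 48.1%. For Sox2, sites with Oct4 but no Klf4 were recovered in 81.9% and 54.4%, sites with Klf4 but no Oct4 in 66.7% and 41.3%, and sites with neither in 57.5% and 30.5%. Shared sites exceeded Oct4 and Sox2 sites without Klf4 by 20.2, 3.85, 2.89 and 8.94 points in the 4 Oct4 and Sox2 libraries, a mean of 8.97 (SD 7.94, exact permutation p = 0.125, the smallest possible).

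A factor was called kept at a site when at least 2 of its mitotic lists had a peak there. Klf4 was kept at 227 of 495 shared sites (45.9%, 95% Wilson interval 41.5 to 50.3), against 26.8% of all Klf4 regions. Oct4 was kept at 297 (60.0%, 55.6 to 64.2), against 24.5% of all Oct4 peaks, and Sox2 at 307 (62.0%, 57.7 to 66.2), against 40.9% of all Sox2 peaks. These shares depend on the number and length of the lists, since Klf4 had to be found in 2 of 3 and the others in 2 of 2. Where 1 mitotic list was left out and both others were required, the Klf4 share was 27.7% without list 1 and 24.8% without list 3. It was 74.2% without Klf4 asynchronous 2. Oct4 mitotic 2 alone had a peak at 88.9% of shared sites and Sox2 mitotic 1 alone at 85.1%. A peak in any mitotic library was present at 70.9% for Klf4, 90.7% for Oct4 and 87.1% for Sox2. All 3 factors were kept at 121 sites (24.4%), Oct4 and Sox2 without Klf4 at 109, and no factor at 75. Klf4 with a single partner was rarer, at 36 sites with Sox2 and 24 with Oct4. Combinations and numbers of mitotic lists were counted at shared sites only. Whether they are particular to these sites was not tested.

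**Figure D2:**
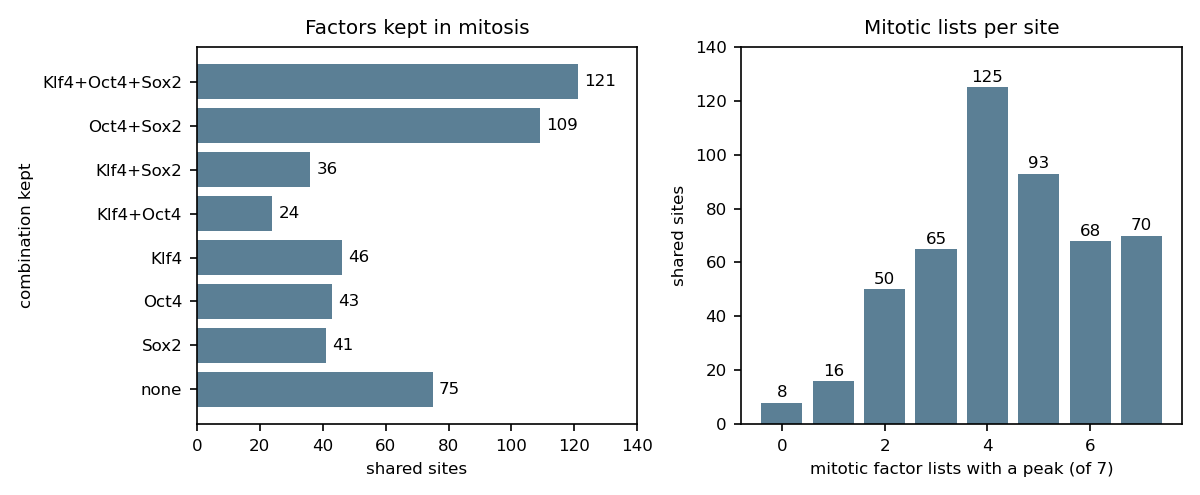
Number of shared sites by the combination of factors kept in mitosis (left) and by how many of the 7 mitotic factor lists had a peak (right). Sites with all 3 factors (121) and with Oct4 and Sox2 but not Klf4 (109) are the most frequent, and 8 sites had no mitotic peak while 70 had a peak in all 7 lists.

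Oct4 and Sox2 tended to be kept at the same sites. Sox2 was kept at 77.4% of the 297 sites that kept Oct4 and at 38.9% of the 198 that did not. Oct4 was kept at 63.9% of the sites that kept Klf4 and at 56.7% of those that did not, and Sox2 at 69.2% and 56.0%. Between single libraries, a peak in an Oct4 mitotic list went with a share of Sox2 peaks higher by 14.3 to 53.6 points over 4 pairs (median 35.0). A Klf4 peak went with −2.54 to 6.75 points for Oct4 over 6 pairs and with 3.66 to 10.2 points for Sox2 over 6 pairs. All Oct4 and Sox2 libraries share a project code with Klf4 mitotic 3 but not with Klf4 mitotic 1 and 2, and the part of the project in these values was not tested. These are shares over sites, given without a test.

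Sites with stronger asynchronous peaks were kept more often, and the slope was steepest for Klf4. Sites were ranked by their mean percentile over the 5 asynchronous factor lists, with 0 for a list without a peak, and split into 5 groups of 99. As 3 of the 5 lists are Klf4 lists, the ranking leans on Klf4. Klf4 was kept at 18.2% of the weakest and 87.9% of the strongest group, Oct4 at 44.4% and 73.7%, and Sox2 at 47.5% and 79.8%. All 3 factors were kept at 3.03% of the weakest and 57.6% of the strongest. Where Klf4 had a peak in all 3 asynchronous lists it was kept at 73.6% of 220 sites, and where it had a peak in 2 lists at 23.6% of 275. The corresponding values for Oct4 were 60.9% and 59.3%, and for Sox2 64.1% and 60.4%.

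The peaks that remained at shared sites in mitosis ranked high within their own lists. Their median percentile of fold was 66.4, 64.5 and 72.3 in Klf4 mitotic 1, 2 and 3, 67.0 and 79.5 in the Oct4 lists, and 75.6 and 71.5 in the Sox2 lists. They made up 24.8% of the peaks of Oct4 mitotic 1 and 16.4% of those of Sox2 mitotic 2, the shortest list of each factor. In the longer lists Oct4 mitotic 2 and Sox2 mitotic 1 they made up 8.35% and 9.35%, and in the Klf4 mitotic lists between 3.74% and 4.43%. In asynchronous cells peaks at shared sites made up 15.0% of the Oct4 list and 16.9% of the Sox2 list. In the Klf4 asynchronous lists they made up between 1.65% and 4.48%. Centres of Oct4 and Sox2 peaks stayed close, a median of 40 bp apart between Oct4 mitotic 2 and Sox2 mitotic 1 and 18.0 bp between Oct4 mitotic 1 and Sox2 mitotic 2.

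H3K27ac was frequent at shared sites and less frequent there in mitosis. A peak touched 83.6% and 82.2% of sites in the asynchronous lists and 61.2% and 61.0% in the mitotic lists. At Klf4-only sites the values were 70.2% and 68.7%, then 50.5% and 47.6%. Klf4 sites with a single partner were close to shared sites. Those with Sox2 but no Oct4 had 86.3% and 85.1%, then 60.6% and 56.6%. Those with Oct4 but no Sox2 had 80.3% and 79.3%, then 59.7% and 59.5%. Mitotic lists were lower by 21.8 points at shared sites, with no overlap between the states (exact two-sided permutation p = 0.333, the smallest that 2 against 2 allows). Both asynchronous lists had a peak at 399 shared sites (80.6%), against 67.2% of all Klf4 regions, and both mitotic lists at 278 (56.2%), against 44.8%. Of the 399 sites, 275 (68.9%) had the mark in both mitotic lists and 83 (20.8%) in neither, close to the 64.2% and 22.1% found over all Klf4 regions with the mark in both asynchronous lists. The excess of shared over Klf4-only sites averaged 12.8 points in the 4 libraries (exact sign-flip permutation p = 0.125, the smallest possible) and 22.3 points when regions within 1 kb of a gene end were left out. Asynchronous and mitotic H3K27ac libraries carry different project codes, so that state and project cannot be told apart. Both H3K27ac differences changed sign when an overlap of at least 50% of the shorter interval was required, to 2.85 points between states and −0.494 points between site classes (exact permutation p = 1 for both).

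H3K27ac peaks were placed differently around the site centres in the lists of the 2 states, which also differ in project code. State and project cannot be told apart in these values. The share of sites with a peak was lower in mitosis beside the centre, while the shares at the centre overlapped between states. The points compared, 500 bp from the centre, lie outside a site of median width (438 bp). In asynchronous cells fewer sites had an H3K27ac peak over the centre than beside it, and in mitosis this gap was shallower. At 500 bp on either side, a peak was present at a mean of 83.4% and 82.0% of sites in asynchronous lists 1 and 2, but at the centre itself at 45.5% and 36.4%. In mitotic lists 1 and 2 the values were 58.3% and 57.5% at 500 bp and 42.0% and 44.6% at the centre. The notch, flank minus centre, was therefore 38.0 and 45.7 points in asynchronous cells and 16.3 and 12.8 points in mitosis. The mitotic notch was smaller by 27.3 points, with no overlap between states (exact permutation p = 0.333, the smallest possible). Among sites with peaks on both sides, the centre was free at 169 of 387 and 203 of 375 in asynchronous cells (43.7% and 54.1%) and at 65 of 251 and 47 of 245 in mitosis (25.9% and 19.2%).

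**Figure D3:**
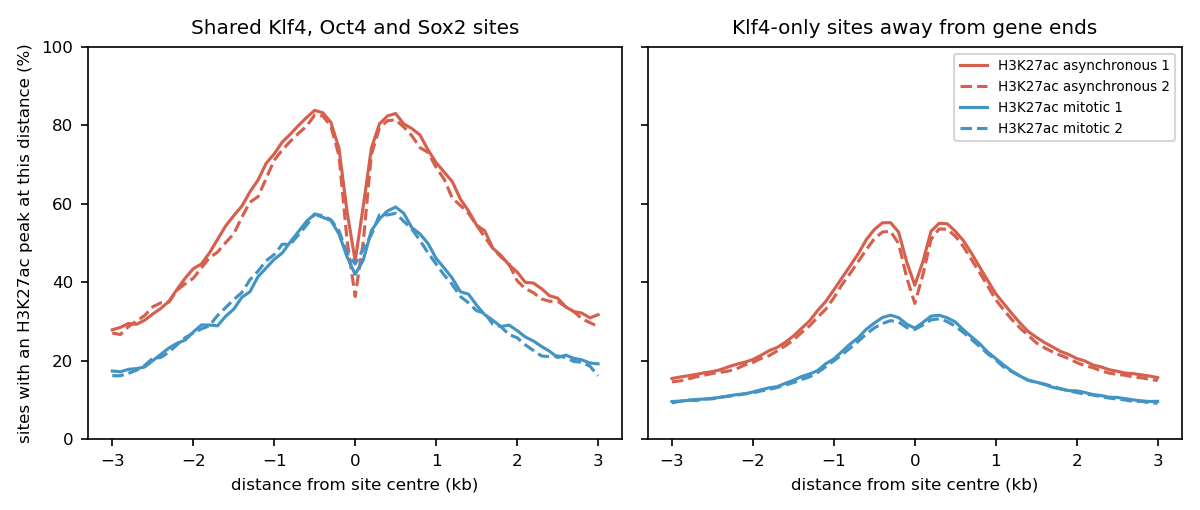
Percentage of sites with an H3K27ac peak (y axis) at each distance from the site centre in kb (x axis), for the 495 shared sites and for 7505 Klf4-only sites with no gene end within 1 kb. Solid and dashed lines are libraries 1 and 2 of each state. At shared sites the asynchronous lines fall from above 80% beside the centre to 45.5% and 36.4% at the centre, where they meet the mitotic lines.

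At Klf4-only sites away from gene ends the notch was shallower, at 14.0 and 16.8 points in asynchronous cells and 1.43 and 0.593 points in mitosis. Shared sites exceeded them by 24.0, 28.8, 14.8 and 12.2 points in the 4 libraries, a mean of 20.0 (exact sign-flip permutation p = 0.125, the smallest possible). Among sites with peaks on both sides the free centre was more frequent at shared sites by 13.8, 17.3, 9.67 and 6.09 points. The 121 sites that kept all 3 factors had mitotic notches of 19.8 and 8.26 points and the 75 that kept none 6.67 and 11.3 points, in an order that differed between the 2 libraries. Peak edges depend on the caller and on read depth, which is unknown here, and their part in the notch was not tested. The measure was chosen after the data had been seen.

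Mitotic H3K27ac went with kept Klf4 but not with kept Oct4 or Sox2. Klf4 was kept at 58.3% of the 278 sites with H3K27ac in both mitotic lists and at 26.8% of the 168 with none. Oct4 was kept at 60.1% and 60.7%, and Sox2 at 62.6% and 60.1%. By library, sites with the mark exceeded sites without it by 24.3, 24.9 and 27.5 points for Klf4 (mean 25.6, SD 1.71), and by 1.28, −1.52, 3.83 and −0.0214 points for Oct4 and Sox2 (mean 0.893, SD 2.27). The 2 sets of libraries did not overlap and differed by 24.7 points (exact two-sided permutation p = 0.0286, adjusted p = 0.0429 over 3 such comparisons, the smallest that 3 against 4 allows). With asynchronous H3K27ac in place of mitotic the difference was 29.0 points (exact permutation p = 0.0286, adjusted 0.0429). The remaining comparison, the excess of shared over other sites, was −12.6 points for Klf4 against Oct4 and Sox2 (exact permutation p = 0.0857). Both H3K27ac comparisons were chosen after the data had been seen, and the adjustment over 3 does not cover that choice. They set libraries of 1 antibody against those of 2, so they describe these libraries and not factors in general.

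Kept Klf4 and mitotic H3K27ac both became more frequent with asynchronous strength, so the sites were split into 3 groups by the percentile of their Klf4 peaks. Klf4 was kept at 21.9% of the weakest group with mitotic H3K27ac and at 15.9% without it. In the middle group the values were 56.9% and 30.0%, and in the strongest group 80.4% and 47.2%. In the weakest group the Wilson intervals were 13.5 to 33.4 and 9.51 to 25.3, and such intervals cover counting error only. The values of the 3 groups are shares over sites, given without a test. Klf4 mitotic 1 and 2 share a project code with the mitotic H3K27ac libraries and Klf4 mitotic 3 does not, and the part of the project in the difference was not tested. Without Klf4 asynchronous 2 the difference between factors was 11.4 points at 221 sites. With a peak required in all 3 Klf4 asynchronous lists it was 13.5 points at 220 sites. When only peaks whose −log10 q reached 5 were used it was 5.08 points at 139 sites (exact permutation p = 0.657).

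**Figure D4:**
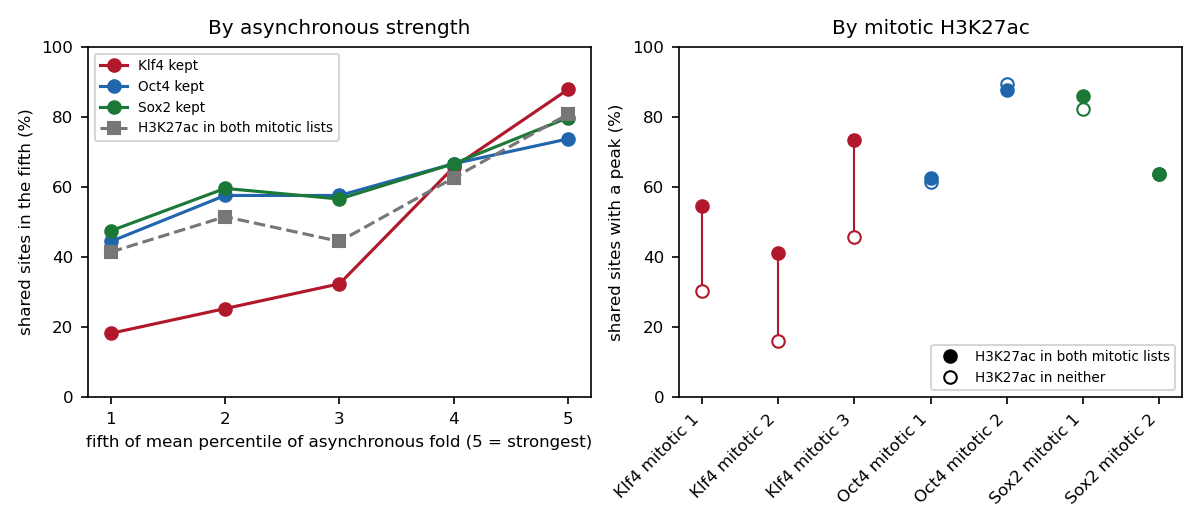
Left, percentage of shared sites at which each factor was kept, or H3K27ac was present in both mitotic lists (y axis), in 5 groups of 99 sites by asynchronous strength (x axis). Right, percentage of shared sites with a peak in each mitotic library, for the 278 sites with H3K27ac in both mitotic lists (filled) and the 168 with none (open). The pairs of points are far apart in the 3 Klf4 libraries and nearly coincide in the Oct4 and Sox2 libraries.

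Genes were taken from 11 lists of pluripotency, signalling, chromatin and cell cycle genes. A gene was linked to a site that overlapped its span or lay within 20 kb of either end. Of 155 listed genes 22 were linked to a shared site (14.2%), against 2.26% of all 21887 protein-coding genes. Listed genes were also more often linked to any Klf4 region, 127 of 155 against 11106 of 21887. How much of the excess at shared sites this accounts for was not tested. The 21 sites involved kept Klf4 at 17, Oct4 at 16, Sox2 at 17 and all 3 factors at 11. Over all 495 shared sites Klf4 was kept at 45.9%, Oct4 at 60.0%, Sox2 at 62.0% and all 3 at 24.4%. Each of the 21 had at least 1 mitotic factor peak, as did all but 8 of the 495 shared sites. Of 24 naive pluripotency genes 6 were linked, and 4 of their 6 sites kept all 3 factors.

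The Nanog site (chr6:122707290-122707642) covers the promoter shown above. Nanog encodes a homeobox factor of the naive network. Its Klf4 folds were 9.61, 4.57 and 5.20 in asynchronous cells, with 7.81 for Oct4 and 6.82 for Sox2. Mitotic folds reached 5.77, 4.72 and 5.71 for Klf4, then 6.66 and 10.6 for Oct4 and 6.18 and 5.76 for Sox2. The Nanog site was thus in all 7 mitotic lists, and its H3K27ac folds were 39.8 and 35.3, then 18.1 and 14.7 in mitosis.

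The Klf2 site (chr8:72334162-72334791) lies 12.5 kb from the gene, which encodes another Kruppel-like factor. Its asynchronous folds were 12.8, 8.29 and 7.92 for Klf4, 4.77 for Oct4 and 8.62 for Sox2. Its mitotic folds were 8.66, 7.38 and 5.73 for Klf4, then 7.20 and 6.95 for Oct4 and 6.72 and 8.61 for Sox2. It too was present in every mitotic list.

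The Pou5f1 site (chr17:35503791-35504292) lies 1.74 kb from the gene for Oct4 itself. In asynchronous cells Pou5f1 had folds of 10.5, 10.4 and 3.53 for Klf4, 15.7 for Oct4 and 9.38 for Sox2. In mitosis it had 7.70 and 5.84 for Klf4 in libraries 1 and 3 and no peak in library 2, 6.15 and 12.2 for Oct4, and 9.08 and 3.95 for Sox2. The site lacked only the shortest Klf4 list.

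The Sox2 gene had its site 1.48 kb away (chr3:34653945-34654250). Its asynchronous folds were 31.9 for Oct4, 21.1 for Sox2, and 5.78 and 4.59 for Klf4 in lists 1 and 2, and Klf4 asynchronous 3 had no peak there. In mitosis the Sox2 gene's site had 7.54 and 16.6 for Oct4, 15.9 and 12.4 for Sox2, and 5.29 and 4.39 for Klf4 in libraries 1 and 3. H3K27ac peaks at Pou5f1, Sox2 and Nanog were present in all 4 lists. In mitotic lists 1 and 2 their H3K27ac folds were 11.3 and 67.4 at Pou5f1 and 12.5 and 93.7 at Sox2, while at Nanog list 2 was the lower of them. The lists hold no expression values, so other markers of the stem cell or feeder label were not checked.

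Esrrb, an orphan nuclear receptor, and Dppa3, an oocyte and germ cell factor, kept fewer factors. The Esrrb site (chr12:86501408-86502123) had asynchronous folds of 5.31, 8.11 and 9.99 for Klf4, 4.04 for Oct4 and 8.45 for Sox2. In mitosis Esrrb had 7.79 and 4.08 for Klf4 in libraries 1 and 3, 4.01 for Oct4 in library 2 only, and 4.31 and 5.27 for Sox2. The Dppa3 site (chr6:122608396-122608773), which also overlaps the Nodal-related gene Gdf3, had 14.4 and 8.37 for Klf4 in asynchronous 1 and 2, 8.70 for Oct4 and 5.07 for Sox2. In mitosis Dppa3 had 6.49 and 5.70 for Oct4, 4.47 for Klf4 in library 3 only, and no Sox2 peak. Klf4 asynchronous 3 had no peak at the Dppa3 site, and in mitosis the site was absent from 2 of 3 Klf4 lists and both Sox2 lists.

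**Figure D5:**
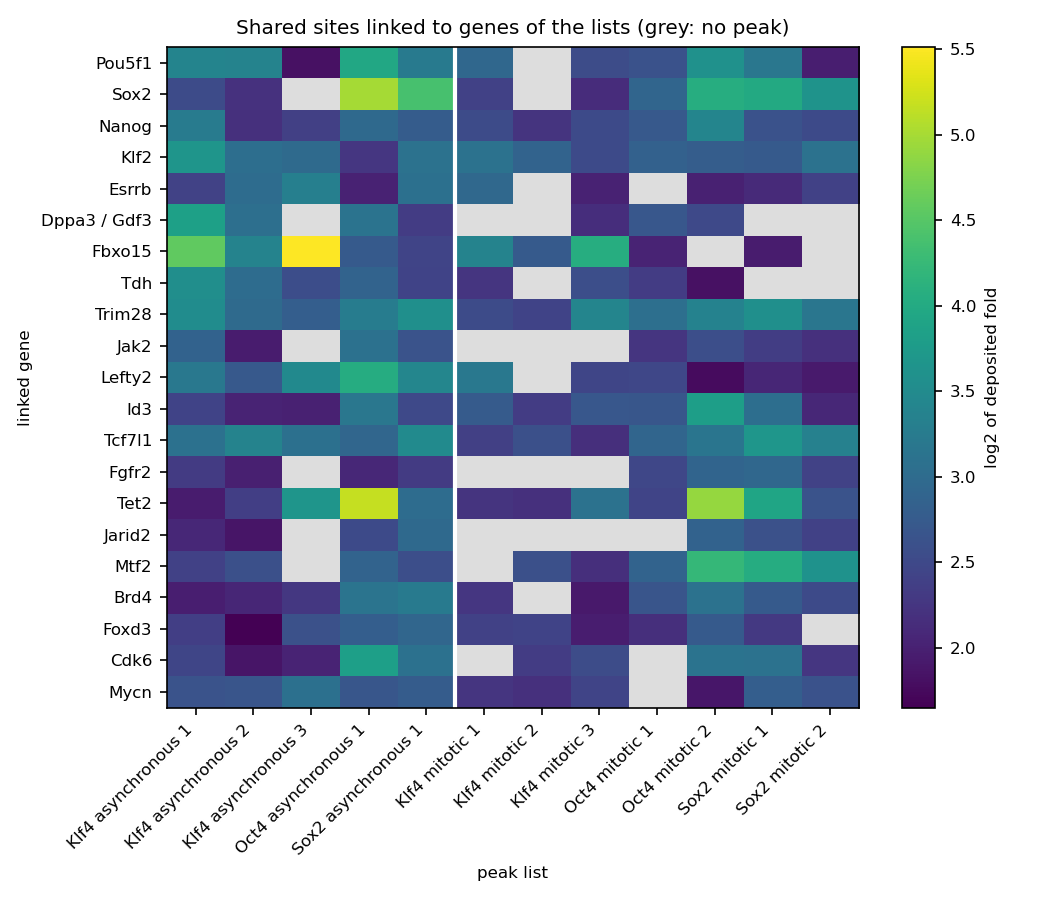
Log2 of the deposited fold (colour) at the 21 shared sites linked to genes of the lists (rows) in the asynchronous and mitotic factor lists (columns, divided by a white line). Grey marks no peak. Folds are comparable within a column only. Nanog, Klf2, Trim28, Id3, Tcf7l1 and Tet2 have a peak in every mitotic column.

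Among the other listed genes, Tet2, Id3, Tcf7l1 and Trim28 had a peak in all 7 mitotic lists. The Trim28 site (chr7:13014238-13014753) lies 9.40 kb from Trim28 but 4.19 kb from Zbtb45, and is the same site as the one named Zbtb45 below. Tet2 encodes an enzyme that oxidises methylcytosine, Id3 an inhibitor of basic helix-loop-helix factors, Tcf7l1 a repressor at Wnt targets and Trim28 a corepressor of retroelements. The Tet2 site had Oct4 folds of 36.1 in asynchronous cells and 5.46 and 29.9 in mitosis. The Id3 site had H3K27ac folds of 18.3 and 15.1 in asynchronous cells and no H3K27ac peak in mitosis, although it was in every mitotic factor list. Jak2, the kinase of the LIF pathway, and Fgfr2, a fibroblast growth factor receptor, had Oct4 and Sox2 peaks in all 4 mitotic lists and no Klf4 peak in mitosis. Fbxo15 went the other way, with Klf4 folds of 10.4, 6.74 and 16.6 in mitosis, an Oct4 peak in library 1 only and a Sox2 peak in library 1 only. Jarid2, a subunit of Polycomb repressive complex 2, had a linked site with no Klf4 peak in mitosis that kept Sox2 alone. A second shared site, 24.9 kb from Jarid2 (chr13:44705117-44705842) and so beyond the linking distance, kept all 3 factors, with Klf4 folds of 4.76 and 4.02 in mitotic 1 and 3. It was added here after its values were seen. Cdk6, a G1 kinase, and Mycn, a Myc family factor, kept Klf4 and Sox2 and had an Oct4 peak in library 2 only.

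The 10 sites with the highest mean percentile over the mitotic lists, ranked by those values, lay near Ubxn2a, Tprg, Olfr761, Rit2, Gm33153, Zfp978, Galntl6, Gabbr1, Gm21992 and Zbtb45, and all were in 7 of 7 lists. Ubxn2a came first with a mean percentile of 98.3. The Ubxn2a site (chr12:4897814-4898440) had mitotic folds of 8.66, 8.76 and 15.1 for Klf4, then 10.0 and 19.4 for Oct4 and 14.8 and 14.8 for Sox2. The Gm33153 site is 0.853 kb from an annotated start of Vegfc, a lymphatic growth factor. Rit2, Zfp978 and Galntl6 had no H3K27ac peak in either asynchronous list. Zfp978 had a mean asynchronous percentile of 33.7 and a mean mitotic percentile of 90.2.

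At 8 sites no mitotic factor list had a peak. Their nearest genes were Klf10, Pax2, Wnt5b, Galnt1, Spaca7, Gm52787, Fkbp4 and Toporsl. The strongest, near Klf10, had asynchronous folds of 7.44, 6.45 and 7.87 for Klf4, 5.30 for Oct4 and 4.82 for Sox2. The site over the start of Wnt5b, a Wnt ligand, had 4.58 and 4.98 for Klf4 in lists 2 and 3, 8.48 for Oct4 and 7.17 for Sox2. Neither Klf10 nor Wnt5b had a mitotic H3K27ac peak. Spaca7, Gm52787 and Fkbp4 had H3K27ac in both mitotic lists without any mitotic factor peak. At Spaca7 the H3K27ac folds were 17.8 and 18.9 in asynchronous lists, against 19.8 and 17.4 in mitotic lists. A missing peak means only that none was listed at the depth of that library.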

How the data were processed

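The submitters' processing notes name cutadapt 1.8.1, Bowtie2 2.2.5, MACS2 2.1.1 and the build mm10. The authors deposited 1 narrowPeak list for each of 17 libraries, while the 7 inputs have no list of their own. In the deposited lists the enrichment of a peak is a fold, a ratio to local background. The deposited −log10 p was at least 5 for each peak, and −log10 q was also given. Read depth is unknown, so list length limits what a missing peak means, and Wilson intervals cover counting error only.

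Overlaps of 1 bp, merging and exact permutation tests over libraries were computed with Python 3.11.15, numpy 2.4.6, pandas 2.3.3 and scipy 1.17.1, and the overlap code was checked on simulated peaks. Coordinates are 1-based. Genes came from a GRCm38.p6 table without strand and promoter and microRNA sequences from RefSeq. The promoter table has no windows for 1 chromosome, so start distances cover 477 of 495 sites. Genome sequence was not used here, so the letters of distal sites are not shown. Named sites were the 10 ranked highest over the 7 mitotic factor lists, those in none of them, those linked to listed genes, and those at the edge of the rule, each by its nearest protein-coding gene. The members and lists were chosen with earlier results of these data known. Alternatives were a 50% overlap, stricter q, lists of equal length, 3 of 3 Klf4 lists, a single project, strength weighting, any mitotic library, no gene-end regions and leaving out each library.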

Additional observations from a re-analysis of the deposited data

Results flagged for a closer look

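The link between H3K27ac and recovery differed between factors in a direct test. With mitotic H3K27ac, recovery of Klf4 exceeded that at sites without the mark by 25.6 points and that of Oct4 and Sox2 by 0.893 points, a difference of 24.7 points between 3 Klf4 libraries and 4 Oct4 and Sox2 libraries (exact permutation p = 0.0286). With asynchronous H3K27ac, at 399 sites with and 73 without the mark, the difference was 29.0 points (exact permutation p = 0.0286). Both comparisons were chosen after the data had been seen and use the same 7 libraries. For the asynchronous mark the Klf4 values were 26.6, 22.8 and 23.8 points, the Oct4 values −10.1 and −6.80 points, and the Sox2 values 2.65 and −4.33 points.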

How the results depend on the processing

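An overlap of 50% of the shorter interval turned the H3K27ac difference between states to 2.85 points and that between shared and Klf4-only sites to −0.494 points. Requiring a −log10 q of 5 gave kept shares of 25.2% (Klf4), 46.0% (Oct4) and 56.1% (Sox2) at 139 sites, and 5.08 points for the H3K27ac-linked difference between factors. Lists of equal length gave 69.0%, 67.6% and 73.9% at 142 sites, a peak in any mitotic library 70.9%, 90.7% and 87.1%, and 3 of 3 Klf4 lists 73.6% for Klf4. Within the project that holds the Oct4 and Sox2 libraries, sites were defined by 1 Klf4 asynchronous list and Klf4 had 1 mitotic list, which had a peak at 82.0% of 272 sites, and Sox2 was kept at 57.4%. There the recovery difference was 26.9 points over 5 libraries (exact permutation p = 0.0625, the smallest possible) and the H3K27ac-linked difference 18.1 points, from 1 Klf4 library against 4 others (exact permutation p = 0.2, the smallest possible). The causes of these changes were not tested, except that fewer libraries raise the smallest possible p.

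Leaving out 1 library at a time gave kept shares of 24.8% to 74.2% for Klf4, 58.1% to 88.9% for Oct4 and 60.9% to 85.1% for Sox2. The extremes came without Klf4 mitotic 3 and Klf4 asynchronous 2, without Klf4 asynchronous 1 and Oct4 mitotic 1, and without Klf4 asynchronous 1 and Sox2 mitotic 2. With 1 of their 2 mitotic lists left out, Oct4 and Sox2 were called kept on the remaining list alone. The 88.9% and 85.1% rest on that looser definition. The Klf4 share was also 27.7% without Klf4 mitotic 1 and 67.1% without Klf4 asynchronous 1. The H3K27ac-linked difference ranged from 11.4 (without Klf4 asynchronous 2) to 25.7 points, and without any 1 mitotic factor library its exact permutation p was 0.0667 or 0.1, the smallest possible. The recovery difference over 7 libraries ranged from 20.0 to 26.7 points, and the mitotic minus asynchronous notch from −31.1 to −23.4 points. With the replicate block the H3K27ac difference between states was −21.8 points (exact permutation p = 0.5, the smallest for 2 pairs); the numbers come from different projects and pair no samples. The weighting by strength was not run for kept shares, nor for the H3K27ac difference between states and the notch.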
